A study of Mus musculus with 6 samples.

Results

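Bdnf, Ntf3, Ntrk2, Ntrk3, Ngfr and Sort1 were followed in ribosome-associated RNA of medial prefrontal cortex (mPFC) D2 neurons. Bdnf and Ntf3 encode neurotrophins, and Ntrk2, Ntrk3, Ngfr and Sort1 encode receptors that bind neurotrophins or their precursors. The genes were chosen by name, and they made up 6 of the 47729 genes and 40 of the 115220 transcripts measured. Levels are FPKM, the fragments of a transcript per kilobase of its length, scaled by sequencing depth, given for single transcripts and as a gene total, which is the sum over all transcripts of a gene. Ntrk2 and Sort1 were abundant in both groups, Ntrk3 was intermediate, Bdnf was moderate, Ntf3 was low and Ngfr was close to 0. None of the 5 genes that could be tested was called as changed between the groups. The widest movements lay between transcripts of 1 gene, Ntrk3 or Sort1, and they were also wide among libraries of the same group.

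The study asked how loss of GSK3β in prefrontal D2 neurons changes the RNA on their ribosomes. All mice were males on a C57BL/6 strain label, aged 2.5 to 3 months when used for virus injection. All carried D2Cre, LSL-Flag-Cas9 and RiboTag. In these mice Cre is driven by the Drd2 gene carried on a transgene, and it switches on both Cas9 and a hemagglutinin-tagged Rpl22, by which the ribosomes of D2 cells are pulled down. The 3 Ctrl libraries came from mice given AAV GFP and the 3 Gsk3sKO in mPFC D2 libraries (Gsk3sKO below) from mice given AAV Gsk3 sgRNA/GFP, and tissue was taken 3 weeks later. Cas9 was thus present in both groups, and only the guide RNA differed. The sources used here do not say whether a library is 1 mouse or a pool, so the p-values below reflect the spread among libraries and no more.

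Neurotrophins are secreted growth factors that are made as longer precursors. The mature proteins signal through Trk receptor tyrosine kinases, with BDNF acting on TrkB (Ntrk2) and NT-3 (Ntf3) mainly on TrkC (Ntrk3), whereas the precursors bind p75NTR (Ngfr) together with sortilin (Sort1). In cortex, BDNF is made mostly by excitatory neurons in response to activity and acts on synapses, and the Bdnf gene has several promoters, each with its own first exon spliced to a single shared coding exon. Ntrk2 and Ntrk3 also give truncated receptors that keep the outer part and the membrane span but lack the kinase.

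The libraries held about 23.5 to 45.2 M reads, estimated from the spacing of the lowest FPKM values. Only 10.9 to 28.1% of the low values used fell on whole reads within 0.01 reads, so these depths are approximate. The short RNA Gm23935 took 12.9 to 24.9% of the summed FPKM in Ctrl and 7.80 to 13.4% in Gsk3sKO. The total of Gsk3b, the targeted gene, was 35.6, 53.8 and 56.5 FPKM in Ctrl and 36.9, 37.0 and 33.6 FPKM in Gsk3sKO (log2 fold change -0.40, SE 0.19, limma unadjusted p = 0.0648), and Ctrl replicate 1 lay within the Gsk3sKO values. Indels made by Cas9 need not remove RNA, so this level is a weak check of the labels. Drd2, which marks the tagged cells, was 1.58 FPKM in Ctrl replicate 1 and 5.96 to 14.1 FPKM in the others. The 6 markers of dopaminoceptive neurons, Drd2 among them, summed to 127, 149 and 371 FPKM in Ctrl. In Gsk3sKO they summed to 229, 183 and 343 FPKM, and 0 of the 6 were called. Astrocyte markers summed to 185 to 229 FPKM in Ctrl and 193 to 240 FPKM in Gsk3sKO, so RNA of cells other than neurons was present in every library. The microglia markers did not overlap between the groups (56.8 to 80.8 FPKM in Ctrl, 46.7 to 54.4 FPKM in Gsk3sKO), and 3 of 9 tested were called lower. Of 9 oligodendrocyte markers 3 were called lower as well, although their sums overlapped (129 to 197 and 134 to 173 FPKM). Over all gene totals tested, 5.2% were called lower. In RNA of pulled-down ribosomes, fewer cells of a type, less RNA per cell and less carry-over from untagged cells cannot be told apart.

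The receptor transcripts are shown first at the sites where their coding sequences part into a kinase-bearing and a truncated receptor. The levels below were estimated over whole transcripts, which also differ outside the letters shown. Lower case gives the last 30 coding bases that both forms share, and capitals give bases found in 1 form alone. Sequences were read from GENCODE M21 transcripts on GRCm38, in the direction of transcription. In Ntrk2 (chr13:58806569-59133970, plus strand) both forms share 464 codons. The truncated form (ENSMUST00000109838) then reads into its last exon, at chr13:58932023-58932060, and ends after 12 residues of its own, for 476 residues in all. The full-length form (ENSMUST00000079828, 821 residues) reads on from chr13:58985802-58985861 with 357 residues of its own, which include the kinase domain.
Ntrk2 truncated: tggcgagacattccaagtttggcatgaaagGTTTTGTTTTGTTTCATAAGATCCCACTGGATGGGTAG
Ntrk2 full-length: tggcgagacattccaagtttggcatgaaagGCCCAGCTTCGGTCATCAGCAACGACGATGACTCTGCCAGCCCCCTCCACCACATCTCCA
In Ntrk3 (chr7:78175959-78738012, minus strand) the forms share 528 codons. The truncated form (ENSMUST00000039438, 612 residues) has 84 residues of its own from chr7:78304367-78304426 onward, and the full-length form (ENSMUST00000039431, 825 residues) has 297 from chr7:78260355-78260414 onward.
Ntrk3 truncated: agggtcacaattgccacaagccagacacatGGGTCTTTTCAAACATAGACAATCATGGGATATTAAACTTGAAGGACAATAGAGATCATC
Ntrk3 full-length: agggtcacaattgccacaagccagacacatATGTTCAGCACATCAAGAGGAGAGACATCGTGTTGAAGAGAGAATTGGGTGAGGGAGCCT

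Other Ntrk3 and Sort1 transcripts have coding sequences that differ by a short insert. These inserts are shown because the transcripts that carry them moved most widely among the members. The Ntrk3 transcripts also differ widely in length outside the insert. Capitals give the insert, and lower case the 15 bases on either side. The Ntrk3 insert of 42 bases adds 14 residues to the kinase-bearing receptor (ENSMUST00000193002, 839 residues) and is exon 16 of 18 (chr7:78204103-78204144). Another kinase-bearing transcript (ENSMUST00000195262, 864 residues) carries the same exon and 1 more, an insert of 117 bases or 39 residues. The Sort1 insert of 99 bases adds 33 residues (ENSMUST00000135636, 858 residues) and is exon 18 of 21 (chr3:108355472-108355570, plus strand).
Ntrk3 insert: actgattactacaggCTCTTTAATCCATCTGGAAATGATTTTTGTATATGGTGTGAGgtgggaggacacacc
Sort1 insert: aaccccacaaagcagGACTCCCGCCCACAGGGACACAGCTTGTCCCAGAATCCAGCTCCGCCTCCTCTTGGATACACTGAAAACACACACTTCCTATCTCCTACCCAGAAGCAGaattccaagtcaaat

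For Bdnf (chr2:109674700-109727007, plus strand) the RNA differs by its start. The 250 bases upstream of exon IV (chr2:109692186-109692435, RefSeq promoter table, GRCm38.p6) are given because exon IV led in 5 of the 6 libraries and because this promoter is a textbook target of CREB, an activity-dependent transcription factor. Capitals mark TCACGTCA, the cAMP-response element known from this promoter, which begins 38 bases before the start.
Bdnf exon IV promoter: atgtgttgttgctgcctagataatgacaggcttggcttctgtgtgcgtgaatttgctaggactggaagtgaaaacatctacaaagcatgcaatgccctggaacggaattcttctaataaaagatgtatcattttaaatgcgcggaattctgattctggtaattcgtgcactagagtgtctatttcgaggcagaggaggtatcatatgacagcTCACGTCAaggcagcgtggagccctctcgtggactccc
Both strands of the same window were searched for TCACGTCA, the consensus element TGACGTCA, the half-site TGACG, which lies inside both on one strand or the other, and the E-box CACGTG. Of the 7 Bdnf windows in the table, 1 held TCACGTCA and its half-site, and 0 held TGACGTCA or CACGTG. Over all 32851 windows of this length the shares were 0.350% for TCACGTCA, 1.55% for TGACGTCA, 17.8% for TGACG and 6.02% for CACGTG. These matches describe letters only. The starts of exons II and VI and of ENSMUST00000111044, which begins downstream of exon VI, have no entry in the table. The window at chr2:109722671-109722920 matches the start of no Bdnf transcript measured here.

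At the level of gene totals, the order by mean FPKM over the 6 libraries was Ntrk2 (89.6), Sort1 (74.0), Ntrk3 (32.0), Bdnf (9.05), Ntf3 (1.55) and Ngfr (0.0622). FPKM is per transcript length, so these levels may be set side by side. The ranges of Ntrk2 (78.3 to 96.6) and Sort1 (63.2 to 81.6) overlapped, as did those of Ntf3 and Ngfr at the lower end. The ranges of the other neighbours in the order did not overlap. Within each single library Ntrk2 lay above Sort1. Ntf3 lay below Ngfr in Ctrl replicate 2 alone (0.0204 against 0.0364 FPKM). Of all gene totals with a mean of at least 1 FPKM, 94.9% lay below Ntrk2, 93.6% below Sort1, 82.9% below Ntrk3, 51.6% below Bdnf and 8.22% below Ntf3.

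**Figure D1:**
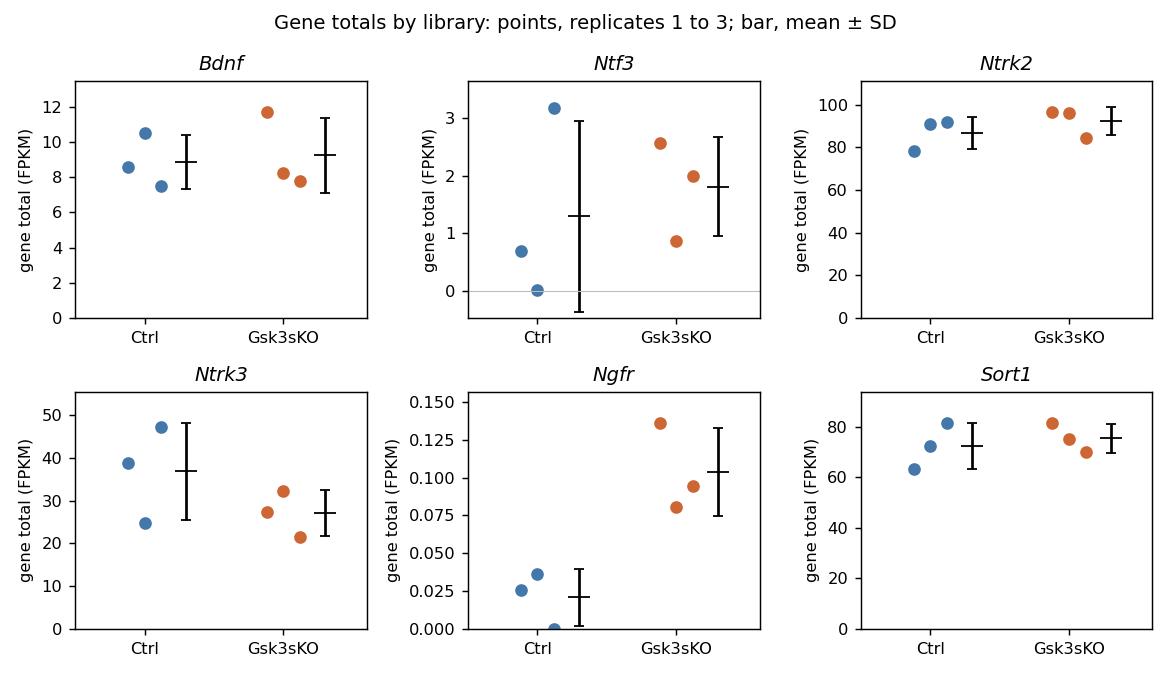
Gene totals (vertical axis, FPKM) of the 6 genes in the 3 Ctrl and 3 Gsk3sKO libraries. Points are libraries and bars the mean ± SD (n = 3), drawn below 0 for Ntf3 in Ctrl, where the SD of 1.65 exceeds the mean of 1.29. The groups overlap for every gene but Ngfr, whose values lie at or below 0.136 FPKM.

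Each gene total with a mean of at least 1 FPKM was tested with limma on log2(FPKM + 1), a scale that understates the change of low genes. A call was an unadjusted p under 0.05. Bdnf, Ntf3, Ntrk2, Ntrk3 and Sort1 passed the filter, and 0 of these 5 were called, against a background of 6.56% of all 12874 gene totals tested (1.36% higher and 5.2% lower in Gsk3sKO, and 0.0466% at an adjusted p under 0.05). A linear model without moderation of the variances also called 0 of the 5. Of their transcripts, 11 of 40 passed the same filter and 0 were called by either model, against a background of 5.56% of 21584 transcripts (1.81% higher and 3.75% lower). A further 29 lay below 1 FPKM, 6 of them at 0 in every library. The groups overlapped for all 5 totals, whereas 12% of all gene totals did not overlap.

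Bdnf encodes the neurotrophin BDNF. Its total was 8.60, 10.5 and 7.50 FPKM in Ctrl and 11.7, 8.23 and 7.78 FPKM in Gsk3sKO, on about 706 to 1922 reads per library. The highest library was Gsk3sKO replicate 1 and the lowest Ctrl replicate 3, and the other values interleaved. The means were 8.86 ± 1.51 and 9.24 ± 2.15 FPKM (SD, n = 3 each), a log2 fold change of 0.05 (SE 0.22, 95% interval -0.46 to 0.55, limma adjusted p = 0.978). The 2-sided exact permutation test gave p = 0.8, where 3 libraries against 3 cannot go below 0.1. The sign turned to -0.06 without Ctrl replicate 3 and to -0.12 without Gsk3sKO replicate 1.

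The Bdnf total was made up mainly of transcripts that start at exon IV and exon VI. The exon IV transcript (ENSMUST00000111050) was 0.993, 3.85 and 4.09 FPKM in Ctrl and 5.42, 5.12 and 2.79 FPKM in Gsk3sKO (log2 fold change 0.53, SE 0.48, limma adjusted p = 0.890). The exon VI transcript (ENSMUST00000111045) was 6.52, 2.73 and 2.35 FPKM in Ctrl and 2.98, 1.67 and 1.67 FPKM in Gsk3sKO (log2 fold change -0.58, SE 0.43, limma adjusted p = 0.890). Ctrl replicate 1 was the lowest library for exon IV and the highest for exon VI, and both sets of values overlapped between the groups. As a share of the Bdnf total, exon VI took 75.9, 26.0 and 31.4% in Ctrl and 25.4, 20.3 and 21.5% in Gsk3sKO. These shares did not overlap (exact permutation p = 0.1, the smallest possible), although Ctrl replicate 2 and Gsk3sKO replicate 1 differed by less than 1 percentage point. Without Ctrl replicate 1 the difference of -22.0 percentage points came to -6.29. For comparison, the levels of 11.2% of all transcripts tested did not overlap between the groups. No such background was computed for shares of a gene total. The exon IV shares were 11.6, 36.7 and 54.6% in Ctrl and 46.3, 62.2 and 35.8% in Gsk3sKO, and they overlapped (exact permutation p = 0.5). Without Ctrl replicate 1 the difference in exon IV share came from 13.8 to 2.47 percentage points, and the log2 fold changes of the exon IV and exon VI transcripts to 0.093 and -0.21.

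The other first exons were lower and were often listed at 0. Exon I (ENSMUST00000053317) was 1.08, 1.24 and 0.988 FPKM in Ctrl and 1.17, 0 and 0.869 FPKM in Gsk3sKO. Its shares of the Bdnf total did not overlap either, at 11.8 to 13.2% in Ctrl and 0 to 11.2% in Gsk3sKO, with the 0 in Gsk3sKO replicate 2 (exact permutation p = 0.1). The exon II transcripts summed to 0, 1.66 and 0.0556 FPKM in Ctrl and 0.804, 1.44 and 2.45 FPKM in Gsk3sKO (exact permutation p = 0.3). Exon III was above 0.01 FPKM in 2 libraries alone, 0.975 in Ctrl replicate 2 and 0.775 in Gsk3sKO replicate 1, and exon V in 1, at 0.559 FPKM in Gsk3sKO replicate 1. Starts downstream of exon VI were at most 0.0445 FPKM. All these transcripts share the coding exon and the long part that follows it, so their split rests on reads over the short first exons.

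**Figure D2:**
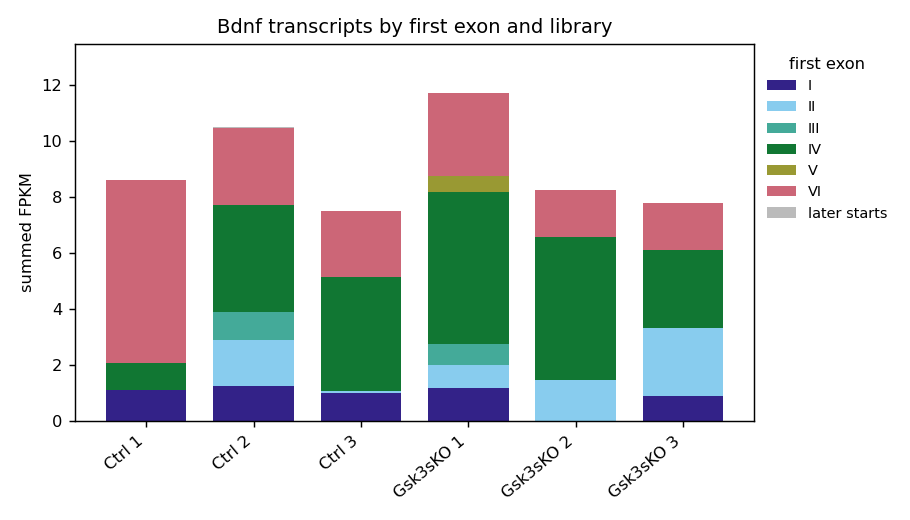
Summed FPKM (vertical axis) of Bdnf transcripts by first exon in each library, stacked to the gene total. Exon VI fills 75.9% of the bar in Ctrl replicate 1 and 20.3 to 31.4% in the other 5 libraries, and exon IV is the largest part of those 5, at 35.8 to 62.2%.

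Ntf3 (chr6:126101412-126166910, minus strand) encodes NT-3. Its total was 0.700, 0.0204 and 3.16 FPKM in Ctrl and 2.55, 0.871 and 1.99 FPKM in Gsk3sKO, on about 1 to 156 reads per library. The Ctrl libraries held both the highest and the lowest value. The means were 1.29 ± 1.65 and 1.80 ± 0.857 FPKM, a log2 fold change of 0.49 (SE 0.53, 95% interval -0.73 to 1.70, limma adjusted p = 0.900). Leaving out 1 library moved this change between 0.027 (without Ctrl replicate 2) and 1.04 (without Ctrl replicate 3, limma unadjusted p = 0.0607), with 0.29 without Gsk3sKO replicate 1 and 0.75 without Gsk3sKO replicate 2. One of its transcripts (ENSMUST00000204542) was seen in Ctrl replicate 3 and Gsk3sKO replicate 3 alone, at 3.16 and 1.80 FPKM.

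Ntrk2 encodes TrkB. Its total was 78.3, 90.7 and 91.7 FPKM in Ctrl and 96.6, 95.9 and 84.5 FPKM in Gsk3sKO, on about 18552 to 34089 reads. Ctrl replicate 1 was the lowest library, and the other Ctrl values lay inside the Gsk3sKO range. The means were 86.9 ± 7.48 and 92.3 ± 6.79 FPKM, a log2 fold change of 0.09 (SE 0.13, 95% interval -0.21 to 0.39, limma adjusted p = 0.929). The full-length transcript with the capitals beginning GCCCAGCTTC above was 69.6, 83.2 and 85.3 FPKM in Ctrl and 87.7, 91.2 and 79.4 FPKM in Gsk3sKO (log2 fold change 0.12, SE 0.13). The truncated transcript, which ends soon after the split, was 8.63, 7.54 and 6.32 FPKM in Ctrl and 8.90, 4.75 and 5.14 FPKM in Gsk3sKO (log2 fold change -0.26, SE 0.30). The truncated form therefore made up 6.89 to 11% of the Ntrk2 total in Ctrl and 4.95 to 9.21% in Gsk3sKO, a difference of -1.99 percentage points that did not exceed the spread (exact permutation p = 0.4). The kinase-bearing share was accordingly 1.99 points higher in Gsk3sKO, and this was 0.854 when Ctrl replicate 1 was left out, 1.10 when Gsk3sKO replicate 2 was and 3.23 when Gsk3sKO replicate 1 was. Truncated TrkB is known as the main form of astrocytes. The astrocyte marker sums given above overlapped between the groups and 0 of the 10 markers was called, and their part in the truncated level was not tested.

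Ntrk3 encodes TrkC, and its total moved most among the tested receptors. It was 38.7, 24.8 and 47.2 FPKM in Ctrl and 27.4, 32.2 and 21.5 FPKM in Gsk3sKO. Ctrl replicates 1 and 3 lay above all Gsk3sKO values and Ctrl replicate 2 lay inside their range. The means were 36.9 ± 11.3 and 27.0 ± 5.38 FPKM, a log2 fold change of -0.41 (SE 0.25, 95% interval -0.98 to 0.17, limma unadjusted p = 0.143, adjusted p = 0.809). Without Ctrl replicate 2 the change was -0.66 with an unadjusted p of 0.0179 (limma adjusted p = 0.973).

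Most of that movement sat in 1 short transcript. ENSMUST00000193002, which carries the 14-residue insert shown above, was 17.8, 1.01 and 25.6 FPKM in Ctrl and 0.803, 9.0 and 0 FPKM in Gsk3sKO (log2 fold change -1.93, SE 1.25, limma adjusted p = 0.879). Its values differed about as widely within Ctrl as between the groups. The Ntrk3 total without it was 20.9, 23.7 and 21.6 FPKM in Ctrl and 26.6, 23.2 and 21.5 FPKM in Gsk3sKO. This transcript is listed at 2678 bases and the full-length transcript without the insert at 19703 bases, so a fragment given to the short one adds more FPKM. Scaled by depth but not by length, Ntrk3 was 291, 291 and 352 in Ctrl and 369, 275 and 299 in Gsk3sKO. On that scale, added after the data were seen, the means were 311 ± 35.1 and 314 ± 48.7 and the log2 fold change was 0.0091 (SE 0.15, 95% interval -0.32 to 0.34).

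The other Ntrk3 transcripts spread less. The full-length form without an insert (ENSMUST00000039431) was 10.5, 12.9 and 12.8 FPKM in Ctrl and 16.8, 10.6 and 13.8 FPKM in Gsk3sKO (log2 fold change 0.16, SE 0.23). The form with the longer insert (ENSMUST00000195262) was 0.106, 1.20 and 0.322 FPKM in Ctrl and 0.474, 6.10 and 0.513 FPKM in Gsk3sKO, so that Gsk3sKO replicate 2 stood alone. The truncated form (ENSMUST00000039438) was 8.25, 7.40 and 7.29 FPKM in Ctrl and 8.59, 5.97 and 6.60 FPKM in Gsk3sKO (log2 fold change -0.11, SE 0.23). Truncated transcripts made up 17.0 to 31.7% of the Ntrk3 total in Ctrl and 18.6 to 32.2% in Gsk3sKO (exact permutation p = 0.6). As a share of fragments they came to 8.29 to 11.3% and 8.65 to 9.29%. The remaining 16 Ntrk3 transcripts had means below 1 FPKM, and 3 of them were at 0 in every library.

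**Figure D3:**
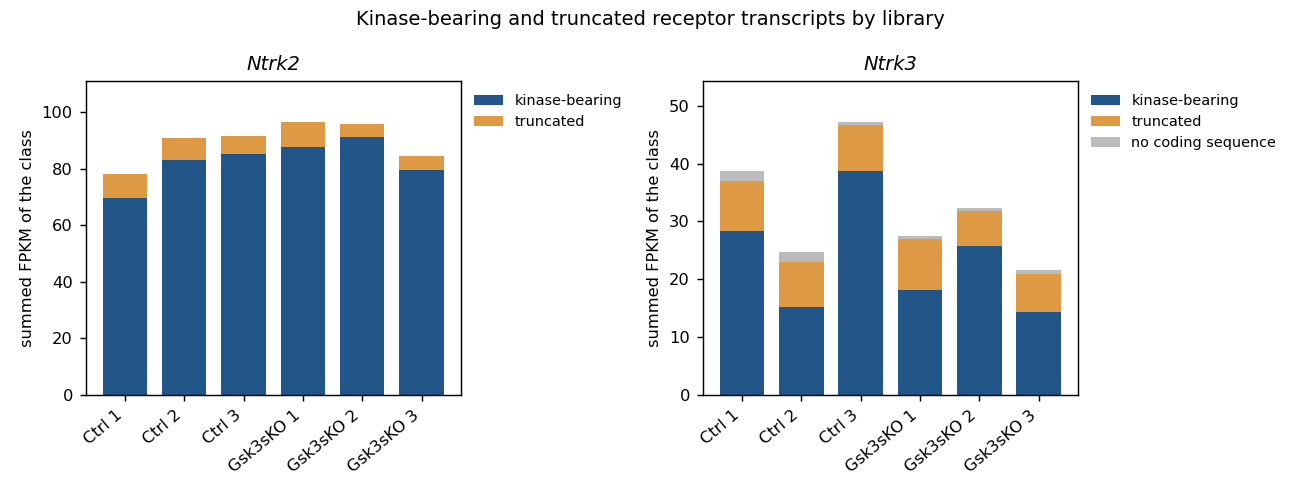
Summed FPKM (vertical axis) of kinase-bearing and truncated transcripts of Ntrk2 (left) and Ntrk3 (right) in each library, with Ntrk3 transcripts that have no coding sequence in grey. The truncated part is 4.75 to 8.90 FPKM for Ntrk2 and 5.98 to 8.81 FPKM for Ntrk3, while the kinase-bearing part of Ntrk3 runs from 14.3 to 38.7 FPKM.

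Ngfr (chr11:95568818-95587735, minus strand) encodes p75NTR, which in adult cortex is low in most neurons. Its single transcript (ENSMUST00000000122) was 0.0260, 0.0364 and 0 FPKM in Ctrl and 0.136, 0.0803 and 0.0942 FPKM in Gsk3sKO. The groups did not overlap, and every Gsk3sKO value was higher, yet these values stand for about 0 to 19 reads. The gene lay below the filter and was left out of the main test, and 0.984% of the 13822 gene totals above 0 and below the filter showed the same separation in this direction. Tested with the filter removed, it passed the threshold (log2 fold change 0.11, limma unadjusted p = 0.0300, adjusted p = 0.798). So did 4.2% of the 26696 gene totals tested in that setting.

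Sort1 encodes sortilin, which sorts BDNF into vesicles and binds proneurotrophins. Its total was 63.2, 72.7 and 81.6 FPKM in Ctrl and 81.4, 75.1 and 70.2 FPKM in Gsk3sKO, with the lowest and the highest library both in Ctrl. The means were 72.5 ± 9.23 and 75.5 ± 5.65 FPKM, a log2 fold change of 0.06 (SE 0.14, 95% interval -0.26 to 0.39, limma adjusted p = 0.948), which turned to -0.030 without Ctrl replicate 1. Its 2 coding transcripts were far less even than the total. The transcript without the 33-residue insert (ENSMUST00000102632) was 39.8, 59.6 and 51.0 FPKM in Ctrl and 65.2, 28.3 and 68.0 FPKM in Gsk3sKO. The transcript with it (ENSMUST00000135636) was 22.9, 11.5 and 29.8 FPKM in Ctrl and 15.9, 42.2 and 1.34 FPKM in Gsk3sKO. The insert-bearing share thus ran from 15.8 to 36.5% in Ctrl and from 1.91 to 56.3% in Gsk3sKO, with both extremes in Gsk3sKO (exact permutation p = 1). The log2 fold changes were 0.02 (SE 0.36) without and -0.81 (SE 1.05) with the insert, and the latter turned to 0.37 without Gsk3sKO replicate 3. The sum of both stayed between 62.8 and 81.1 FPKM. A transcript with a retained intron (ENSMUST00000129755) was 0.311 to 1.51 FPKM in 5 libraries and 4.47 FPKM in Gsk3sKO replicate 2. The Sort1 comparison by insert was chosen after its values were seen.

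**Figure D4:**
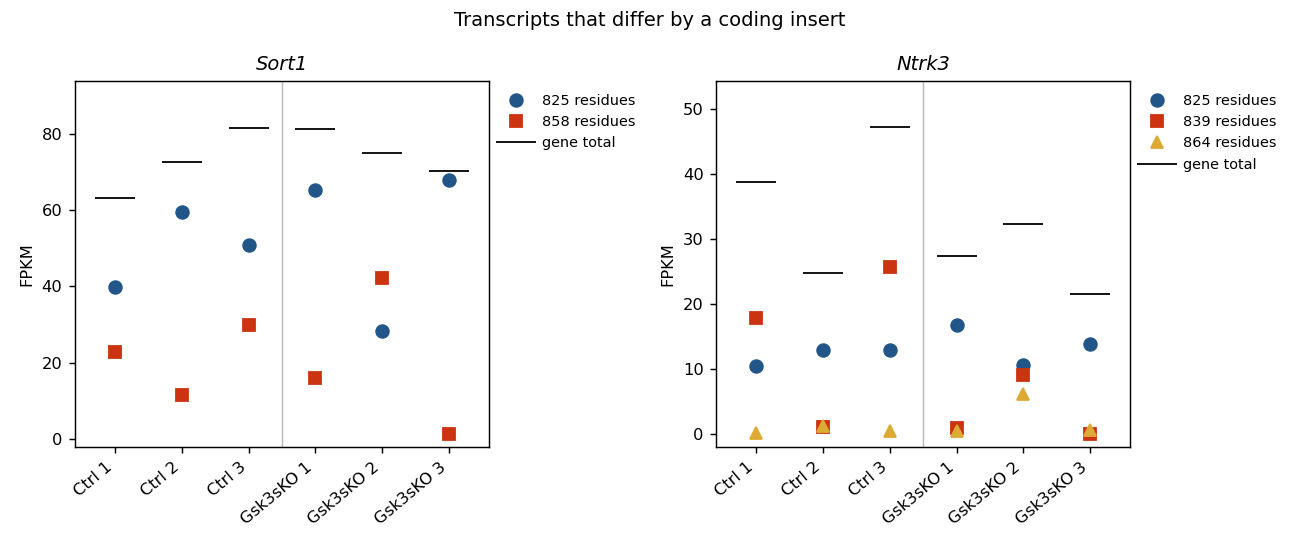
FPKM (vertical axis) of coding transcripts that differ by an insert, by library, for Sort1 (left) and Ntrk3 (right), labelled by protein length in residues, with the gene total as a black line. In Sort1 the 858-residue transcript lies above the 825-residue one in Gsk3sKO replicate 2 alone (42.2 against 28.3), and in Ntrk3 the 839-residue transcript leads in Ctrl replicates 1 and 3 (17.8 and 25.6).

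The genes around these 6 were read from 7 hand-written lists of neurotrophin ligands, receptors, proneurotrophin processing, Trk adaptors, p75NTR partners, regulators of the Bdnf gene and genes induced by BDNF or activity. Of 99 further genes in the lists, 87 passed the filter and 3 were called, which is 3.45% beside the background of 6.56%. The median log2 fold change of the 87 was -0.04, beside -0.06 over all gene totals tested. Of the 87, 37 lay above 0 and 50 below. The adjusted p of each was at least 0.741 (limma).

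Of the 8 receptors and co-receptors tested, members included, 0 were called, and their median log2 fold change was 0.05. Sorl1, a sorting receptor of the sortilin family, followed Ntrk2 and Sort1 in abundance, at 34.4 to 42.0 FPKM in Ctrl and 38.1 to 44.1 FPKM in Gsk3sKO.

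Of the 10 processing and sorting genes tested, 0 were called, with a median of -0.05. Cpe (carboxypeptidase E, which also sorts proBDNF) was the most abundant, at 402 to 446 FPKM in Ctrl and 392 to 414 FPKM in Gsk3sKO. The prohormone convertase gene Pcsk2 was 92.1 to 105 and 92.0 to 101 FPKM. Hap1, which encodes a partner of huntingtin in BDNF transport, was 80.8, 71.8 and 88.5 FPKM in Ctrl and 71.4, 65.5 and 64.9 FPKM in Gsk3sKO (unadjusted limma p of 0.0945). Its groups did not overlap, which held for 12% of all gene totals tested.

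Of 32 Trk adaptors and signalling genes 1 was called, with a median of -0.03. Map2k1, which encodes the kinase MEK1, and Kidins220, which encodes a Trk substrate, were among the most abundant of the list. Map2k1 was 124, 132 and 124 FPKM in Ctrl and 118, 121 and 87.5 FPKM in Gsk3sKO (log2 fold change -0.23, SE 0.15). It was not called although the groups did not overlap, which held for 12% of all gene totals tested. Kidins220 was 66.1 to 67.7 FPKM in Ctrl and 68.5 to 71.5 FPKM in Gsk3sKO (log2 fold change 0.06, SE 0.12).

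Of 9 p75NTR partners 0 were called, with a median of -0.10. Bex1 was 111 to 214 FPKM in Ctrl and 116 to 139 FPKM in Gsk3sKO, Maged1 121 to 161 and 109 to 155 FPKM, and Lingo1, a co-receptor of p75NTR, 103 to 116 and 85.3 to 108 FPKM.

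Of 17 regulators of the Bdnf gene 2 were called, which is 11.8% beside the background of 6.56%. Mef2c, a neuronal activity-dependent transcription factor, was called higher in Gsk3sKO. Its levels were 152, 183 and 180 in the Ctrl libraries and 214, 216 and 216 FPKM in the Gsk3sKO ones (log2 fold change 0.33, SE 0.13, limma unadjusted p = 0.0320, adjusted p = 0.741). Atf1, a relative of CREB, was called lower in Gsk3sKO. It stood at 5.54, 3.21 and 3.98 in Ctrl libraries against 2.83, 2.43 and 1.1 FPKM where the guide was given (log2 fold change -0.77, SE 0.32, limma unadjusted p = 0.0411, adjusted p = 0.750). Neither set overlapped between the groups, which held for 12% of all gene totals tested. Arnt2 was 49.6 to 87.6 FPKM in Ctrl and 63.2 to 75.5 FPKM in Gsk3sKO, and Mef2d 41.5 to 60.4 and 41.3 to 53.4 FPKM.

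Of 13 genes that BDNF or neuronal activity induces 0 were called, with a median of -0.07. Homer1 was 67.8 to 77.7 FPKM in Ctrl and 73.5 to 91.7 FPKM in Gsk3sKO, Egr1 63.2 to 86.8 and 47.2 to 74.8 FPKM, and Arc 43.8 to 78.2 and 48.5 to 70.9 FPKM. The count of 3 calls among the 87 rested on single libraries. It was 1 when Ctrl replicate 1 or Gsk3sKO replicate 2 was left out, 0 when Gsk3sKO replicate 3 was, and 5 when Gsk3sKO replicate 1 was.

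**Figure D5:**
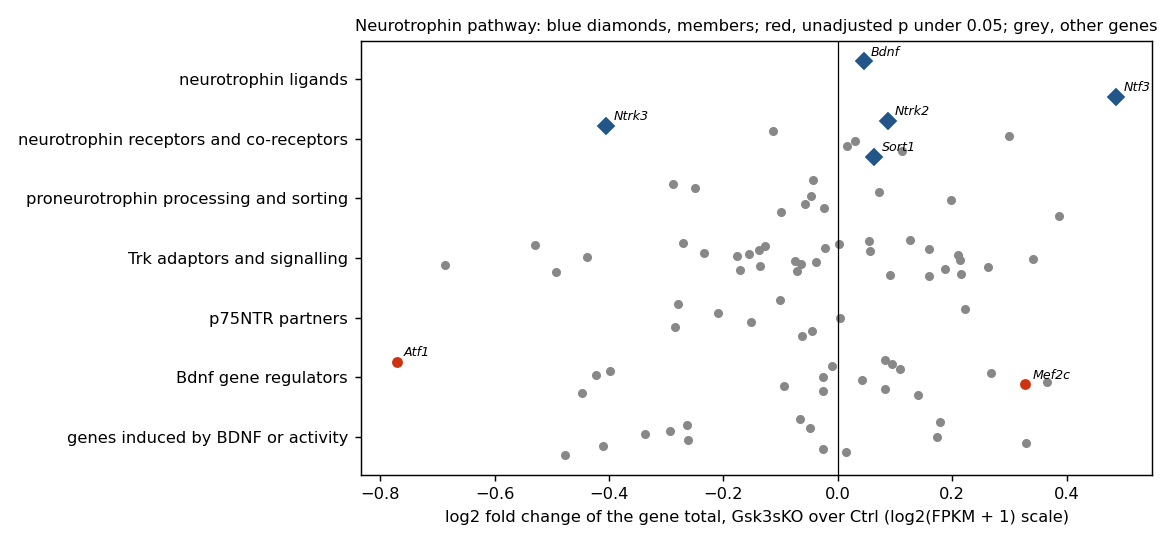
Log2 fold change of gene totals (horizontal axis, Gsk3sKO over Ctrl, log2(FPKM + 1) scale) for genes of the 7 lists, 1 list per row, with vertical scatter for legibility. Blue diamonds are the 5 tested genes of interest, and the red points Mef2c and Atf1, at 0.33 and -0.77, are called regulators of the Bdnf gene.

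The genes whose pattern over the 6 libraries was most like that of Bdnf and Ntrk2 were sought among 8467 other gene totals with a mean of at least 5 FPKM. Likeness was the root mean square difference of log2(FPKM + 1) after centring each gene on its own mean. For Bdnf these were Ift22 (0.0409), Morn4 (0.0816) and Prss23 (0.0847), where the median of all compared genes was 0.309. Ift22 ran at 7.74, 9.65 and 6.95 FPKM in Ctrl and 10.5, 7.07 and 7.40 FPKM in Gsk3sKO, with the same highest and second-highest library as Bdnf. For Ntrk2 they were Gdi2 (0.0306), Trim37 (0.0307) and Npepps (0.0311), beside a median of 0.246. Each likeness rests on 6 libraries. The nearest of 8467 genes lie below the median by construction, so the medians do not show how unusual these matches are.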

How the data were processed

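RNA was taken by RiboTag immunoprecipitation and sequenced from total RNA with a stranded kit in 3 Ctrl and 3 Gsk3sKO libraries, grouped by the submitters' labels. The authors deposited 1 FPKM value per transcript and library, on GRCm38. The submitters' processing notes list HISAT2 2.1.0, SAMtools 1.9 and StringTie 1.3.4d, with settings not given in the sources used here. Such tools divide fragments between overlapping transcripts by estimation, so a fall of one transcript can accompany a rise of another. The deposited fold, p-value and q-value columns hold the authors' own comparison and were not used. All 6 library columns were used.

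Gene totals and transcripts that averaged 1 FPKM or more over the libraries entered limma 3.58.1 (R 4.3.3, lmFit and eBayes with trend) as log2(FPKM + 1), 2-sided, with no covariate and Benjamini-Hochberg adjustment over all features tested. A call was an unadjusted p under 0.05. The fit was tested on simulated data. Single values and isoform shares were compared by exact permutation over the libraries. Tables and figures used Python 3.11.15, numpy 2.4.6, pandas 2.3.3 and matplotlib 3.10.9. Depth was estimated from transcripts longer than 800 bases, and read numbers are approximate.

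Transcripts were matched by ID to GENCODE M21, which held 114332 of them and lacked 888. Kinase-bearing transcripts end at the stop codon of the longest coding sequence of the gene, and truncated ones elsewhere. Promoter windows came from RefSeq. Named genes were the 6 members, their transcripts with a mean of at least 1 FPKM, called list genes, the 3 most abundant genes of each list, the 3 nearest matches of Bdnf and of Ntrk2, and Gsk3b; Drd2, Gm23935 and lower transcripts were added with their values in view. Some list genes are counted but are not reported here or drawn. The members and lists were chosen with earlier results of these data known. Alternatives were median-ratio rescaling, a pseudocount of 0.1, no filter, a mean of at least 5 FPKM, no moderation of variances, a replicate block, leaving out each library, and, added after seeing the data, fragments scaled to the library but not to length in place of FPKM.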

Additional observations from a re-analysis of the deposited data

How the results depend on the processing

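Of 64 alternative fits of the 5 tested gene totals, 59 kept the direction and the side of the threshold, and of 126 fits of the 11 transcripts 121 did. Fits without a filter, at a mean of at least 5 FPKM, without moderation or with a replicate block cannot change the direction. They could differ only in the side of the threshold, so these counts are partly fixed in advance. The Bdnf total turned to -0.06 without Ctrl replicate 3 and -0.12 without Gsk3sKO replicate 1 (log2 fold change, range -0.12 to 0.16 when 1 library was left out). The Ntrk3 total ranged from -0.66 (without Ctrl replicate 2, then called) to -0.21, and was 0.0091 without scaling to transcript length. The Sort1 total ranged from -0.030 (without Ctrl replicate 1) to 0.15. Sort1 ENSMUST00000135636 turned to 0.37 without Gsk3sKO replicate 3 (range -1.74 to 0.37), and ENSMUST00000102632 to -0.13, -0.17 and -0.20 without Ctrl replicate 1, Gsk3sKO replicate 1 and Gsk3sKO replicate 3 (range -0.20 to 0.42). Ntrk3 ENSMUST00000193002 was -3.09 and called without Ctrl replicate 2. The cause of these changes was not tested, except that the scale without length weighs each fragment alike.

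The number of called transcripts was 1200, 1917 without a filter, where 69611 were tested, and 590 at a mean of at least 5 FPKM, where 9662 were tested. Called gene totals numbered 844 and ranged from 573 to 1178 when 1 library was left out. Median-ratio rescaling split the calls into 276 higher and 527 lower, beside 175 and 669. Called pathway genes numbered 3, ranged from 0 to 5 when 1 library was left out, and were 6 without scaling to length. Without a filter Ngfr was called, with a log2 fold change of 0.11 (limma unadjusted p = 0.0300, adjusted p = 0.798), as were 1121 of 26696 gene totals (4.2%). At a mean of at least 5 FPKM Ntf3 was not tested. Same-numbered libraries did not deviate together (correlations of deviations -0.0274, -0.0108 and -0.0809), so the numbers were not taken to pair the samples. With a replicate block, 821 gene totals and 1103 transcripts were called, 0 of them members. Ngfr rests on 0 to 19 reads per library. The log2 fold change of the Ntf3 total was 1.37 (SE 1.16) with a pseudocount of 0.1, beside 0.49 (SE 0.53) in the main fit. The Ntf3 total itself spread from 0.0204 to 3.16 FPKM within Ctrl.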
